A study of Homo sapiens with 8 samples.

Results

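The primary (azurophil) granule protease and lysozyme genes were followed through PRMT9 knockdown (KD) in AML cells. The set held 9 genes, *MPO*, *ELANE*, *PRTN3*, *AZU1*, *CTSG*, *LYZ*, *RNASE2*, *RNASE3* and *SRGN*, chosen by symbol from the 57992 genes of the Molm13 table and matched by identifier in the 58174 genes of the THP1 table. All 9 were present in both tables and all 9 passed the filter on low counts in both lines. Bulk polyA RNA-seq had been performed in Molm13 and THP1, established monocytic AML lines with a *KMT2A* (*MLL*) fusion. In each line, Dox induction switched on a control hairpin (shCtrl) or a hairpin against *PRMT9* (shPRMT9), an arginine methyltransferase, so that the control cells had also received Dox. There were 2 libraries in each of 4 groups (8 in all), and the comparison asks how loss of PRMT9 changes RNA levels in each line. The labels do not say whether numbers 1 and 2 of a group were separate cultures or, for shPRMT9, separate hairpins, and p-values then measure only the spread between these libraries, which may be technical.

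Primary granules are the first granules made during myeloid maturation, at the promyelocyte stage, and their contents kill and digest microbes after fusion with the phagosome. Neutrophil elastase (*ELANE*), proteinase 3 (*PRTN3*), cathepsin G (*CTSG*) and the enzymatically inactive azurocidin (*AZU1*) are related serine proteases, which cathepsin C activates by removing a dipeptide. Myeloperoxidase (*MPO*) makes hypochlorous acid, lysozyme (*LYZ*) cleaves bacterial cell walls, and *RNASE2* and *RNASE3* encode cationic ribonucleases that eosinophils also store. Serglycin (*SRGN*) is the proteoglycan whose sulfated chains hold the cationic proteins in the granule. In normal maturation the protease genes are transcribed early and then shut down, whereas *LYZ* continues to be made in monocytes and macrophages.

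Libraries held 18720950 to 27356870 counts on genes, of which the 9 genes took 0.490 to 0.525% in Molm13 and 0.725 to 0.766% in THP1. *PRMT9* itself had 332 and 289 counts in Molm13 shCtrl against 41 and 56 in shPRMT9, and 317 and 352 counts in THP1 shCtrl against 60 and 68 in shPRMT9, a log2 fold change of −2.68 ± 0.14 (SE) and −2.29 ± 0.13. Of 7 markers of *MLL*-fusion leukemia, none in Molm13 and 2 in THP1 were below 1 RPKM (counts scaled by exon length and by the TMM-scaled library total). *MEIS1*, chosen after its values were seen, was at 6.71 RPKM in Molm13 shCtrl and 0.0191 RPKM in THP1 shCtrl. OCI, the prefix of a series of other leukemia lines, stands in the THP1 library titles although every other label says THP1, and 5 *HOXB* genes summed to 12.5 to 14.5 CPM (counts scaled by the TMM-scaled library total, without length) there against 0.196 to 0.320 CPM in Molm13.

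Within a line, the 9 genes spanned a wide range of levels. In Molm13 shCtrl cells *SRGN* was highest at 1526 ± 3 RPKM (SD, n = 2), followed by *CTSG* (529 ± 0.97), *ELANE* (454 ± 0.65), *RNASE2* (420 ± 5.6), *AZU1* (365 ± 3.8), *LYZ* (359 ± 0.73) and *PRTN3* (177 ± 1.6), with *RNASE3* (18.7 ± 0.96) and *MPO* (17.3 ± 0.23) far below. No neighbors in this order overlapped between their 2 libraries. In THP1 shCtrl cells *SRGN* again led at 1771 ± 10 RPKM, but *PRTN3* (1313 ± 76) and *LYZ* (1068 ± 4.8) came next, followed by *ELANE* (747 ± 39), *AZU1* (434 ± 8.3), *RNASE2* (341 ± 0.36) and *CTSG* (133 ± 2.0), with *RNASE3* (8.18 ± 0.77) and *MPO* (2.13 ± 0.30) last. There too no neighbors overlapped. After shPRMT9, *AZU1*, *LYZ* and *RNASE2* moved above *CTSG* and *ELANE* in Molm13, where only *LYZ* and *RNASE2* overlapped between libraries, and *LYZ* moved above *SRGN* in THP1.

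**Figure D1:**
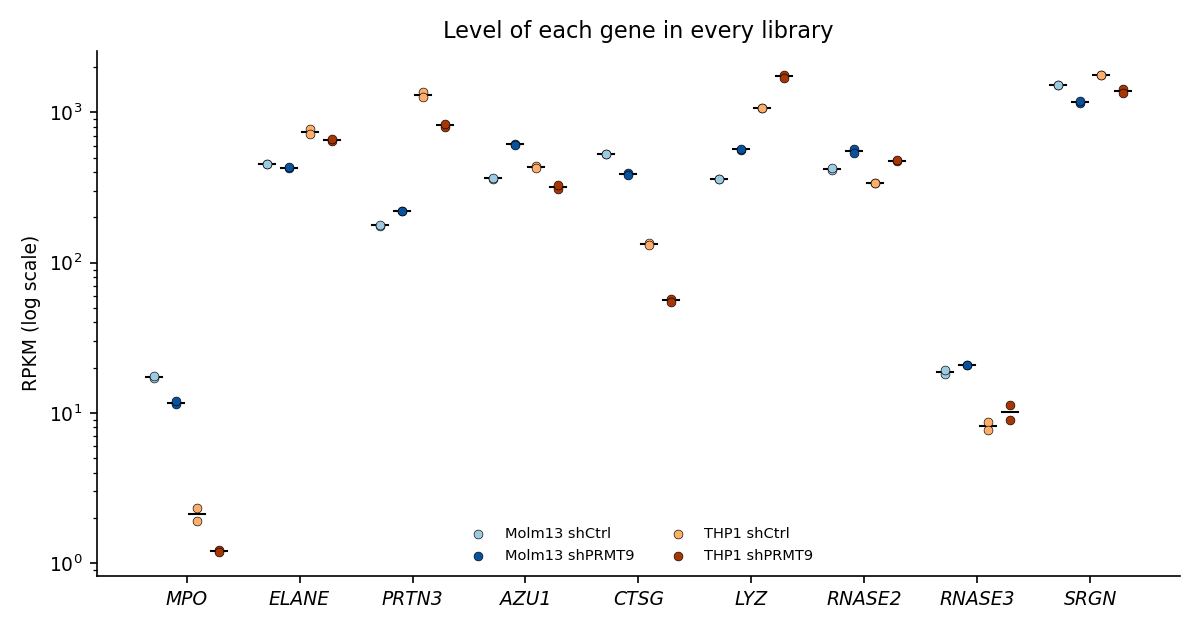
RPKM on a log scale of each gene in every library (points, 2 per group) with the group mean (bars). *MPO* and *RNASE3* sit below 21 RPKM in every library and the other 7 genes above 54 RPKM, and the largest distances between the lines are those of *MPO*, *PRTN3* and *CTSG*.

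Between the control cells of the lines, all 9 genes differed at an FDR below 0.05 (the Benjamini-Hochberg adjusted p of the quasi-likelihood test in edgeR), 5 higher and 4 lower in THP1. Of 19288 genes tested, 82.8% differed (40.1% higher, 42.7% lower). *PRTN3* was 7.42-fold higher in THP1 (log2 difference 2.89 ± 0.03, SE) and *LYZ* 2.98-fold higher (1.58 ± 0.03). In the other direction, *MPO* was 8.15-fold lower in THP1 (−3.03 ± 0.08), *CTSG* 3.97-fold lower (−1.99 ± 0.03) and *RNASE3* 2.28-fold lower (−1.19 ± 0.11). The distances were smaller for *ELANE* (0.72 ± 0.03), *AZU1* (0.25 ± 0.03), *SRGN* (0.22 ± 0.02) and *RNASE2* (−0.30 ± 0.03). A distance above 2-fold was reached by 5 of the 9 genes, 2 higher and 3 lower, and by 46% of all genes tested (21.7% higher, 24.3% lower). The lines were sequenced and counted in separate tables, so a line cannot be told apart from the handling of its table.

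After shPRMT9, 8 of the 9 genes were called at an FDR below 0.05 in Molm13, 4 higher and 4 lower, and 8 of 9 in THP1, 2 higher and 6 lower. Over all genes tested, 66.9% were called in Molm13 (33.4% higher, 33.5% lower of 16446) and 37.6% in THP1 (19% higher, 18.6% lower of 16294), so that a call was common for any gene in Molm13. *LYZ* and *RNASE2* were higher in both lines. *MPO*, *ELANE*, *CTSG* and *SRGN* were lower in both lines. *PRTN3* and *AZU1* were higher in Molm13 and lower in THP1, and *RNASE3* was called in neither. Among 13476 genes tested in both lines, 11.5% were called higher in both, 10.8% lower in both and 11.3% in opposite directions.

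Sizes were moderate. The median absolute log2 fold change of the 9 genes was 0.40 in Molm13, where that of all genes was 0.39, and 0.49 in THP1, where that of all genes was 0.19. The signed median was 0.15 in Molm13 and −0.36 in THP1, with medians over all genes of 0.00 in both. With the study's rule for differentially expressed genes (DEGs), which needs an FDR below 0.05, a change above 1.5-fold and an RPKM above 1 in at least 1 library, 2 of the 9 genes were DEGs in Molm13 (*AZU1* and *LYZ*, both higher, against 22.8% of all genes and 11.4% of them higher) and 4 in THP1 (*LYZ* higher, *CTSG*, *MPO* and *PRTN3* lower, against 6.22% of all genes, 3.83% higher and 2.39% lower). For each of the 9 genes, and in both lines, the libraries of the 2 arms were fully apart in CPM, as they were for 81.9% of all genes in Molm13 and 66% in THP1. As summed CPM, the set went from 4926 and 4942 to 5235 and 5236 in Molm13, and from 7443 and 7644 to 7326 and 7482 in THP1.

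**Figure D2:**
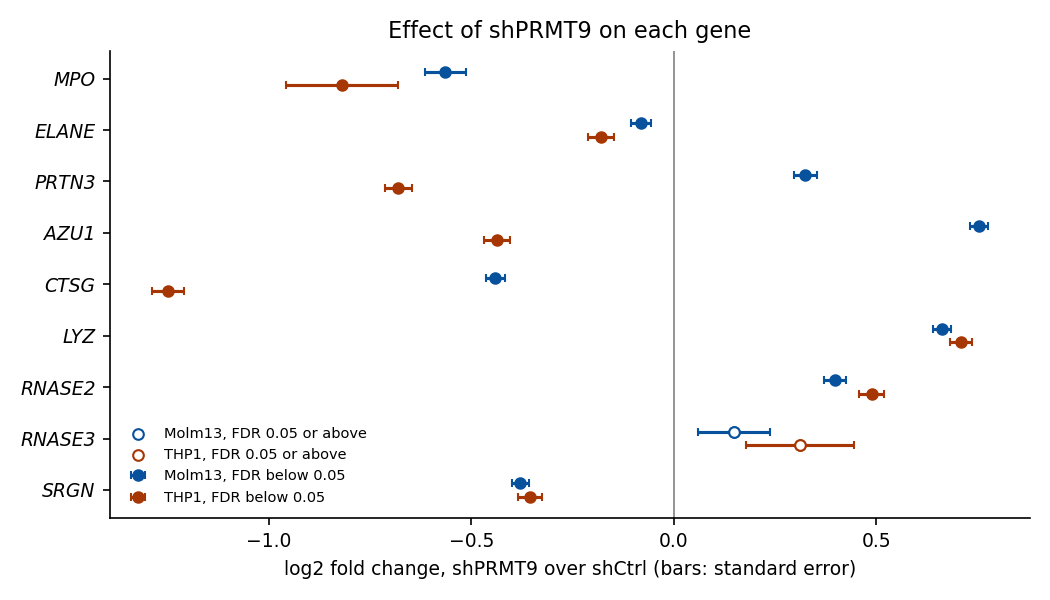
log2 fold change of shPRMT9 over shCtrl for each gene in Molm13 and THP1, with bars for the standard error and open points where the FDR was 0.05 or above. *PRTN3* and *AZU1* lie on opposite sides of 0 in the lines, *CTSG* reaches −1.25 in THP1, and *LYZ* lies at 0.66 in Molm13 and 0.71 in THP1.

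Of the 4 serine protease genes, 3 stand side by side on chromosome 19 (GRCh38, all on the forward strand): *AZU1* (ENSG00000172232) at 825097 to 832018, *PRTN3* (ENSG00000196415) at 840960 to 848175 and *ELANE* (ENSG00000197561) at 851014 to 856247. *CTSG* (ENSG00000100448) lies on chromosome 14 at 24573522 to 24576260, reverse strand. The 200 bases before the RefSeq start (GRCh38.p14) are shown for the 3 of them found in the promoter table, since *AZU1* and *PRTN3* moved in opposite directions in the lines while *CTSG* fell in both. RefSeq starts differ from the spans given above. The *AZU1* window, 827637 to 827836, lies inside its span. Those of *PRTN3* (840799 to 840998) and *CTSG* (24576251 to 24576450) run into theirs. Capitals mark matches on either strand to 3 sequence motifs of myeloid factors, GGAAGT for PU.1, AACGG for MYB and TTGCNNAA for C/EBP:
AZU1: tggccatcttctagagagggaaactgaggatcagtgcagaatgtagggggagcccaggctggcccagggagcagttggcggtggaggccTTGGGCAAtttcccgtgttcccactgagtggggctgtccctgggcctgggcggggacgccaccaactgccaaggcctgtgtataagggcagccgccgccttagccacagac
PRTN3: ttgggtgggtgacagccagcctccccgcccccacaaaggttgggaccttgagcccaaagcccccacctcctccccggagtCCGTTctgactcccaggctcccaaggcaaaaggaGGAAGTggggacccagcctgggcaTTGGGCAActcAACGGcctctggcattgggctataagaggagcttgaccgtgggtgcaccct
CTSG: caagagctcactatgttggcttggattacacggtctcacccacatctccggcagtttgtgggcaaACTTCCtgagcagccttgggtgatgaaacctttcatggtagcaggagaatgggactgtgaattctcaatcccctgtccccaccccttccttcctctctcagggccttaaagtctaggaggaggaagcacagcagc
*AZU1* holds a single C/EBP match, the same 8 letters as in *PRTN3*, which adds a PU.1 match and 2 MYB matches. *CTSG* holds a PU.1 match alone. Over 35116 promoter windows of the same length, 6.91% hold the C/EBP letters, 16.7% the PU.1 letters and 13.4% the MYB letters, and a match here is a description of the letters, not a binding site. Neither the RUNX letters TGTGGT (8.72% of windows) nor the consensus of the interferon-stimulated response element (2.40%) were found in these windows.

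*AZU1* had the largest rise of the set in Molm13. Its level was 363 and 368 RPKM in shCtrl and 619 and 612 RPKM in shPRMT9, with no overlap, a 1.68-fold rise (log2 0.75 ± 0.02; edgeR FDR = 7.5e-30). In THP1 it went the other way, from 440 and 428 RPKM to 310 and 331 RPKM, a 1.35-fold fall (−0.44 ± 0.03; edgeR FDR = 6.1e-12). The effect in THP1 minus that in Molm13 was −1.18 ± 0.04 (edgeR FDR = 1.2e-46), past 2-fold, a size reached by 9.73% of all genes (3.36% higher, 6.37% lower). Differences in effect were called for 4 of the 9 genes, 1 higher and 3 lower, and for 42.2% of all genes (22.8% higher, 19.4% lower).

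*PRTN3*, the autoantigen of granulomatosis with polyangiitis, turned in the same way from a very different base level. In Molm13 it had 176 and 178 RPKM in shCtrl and 222 and 222 RPKM in shPRMT9, a rise of 1.25-fold (log2 0.32 ± 0.03; edgeR FDR = 1.2e-13). In THP1, 1367 and 1259 RPKM in shCtrl became 804 and 834 RPKM, a 1.60-fold fall (−0.68 ± 0.03; edgeR FDR = 5.7e-16). The THP1 shCtrl libraries lay farther apart than those of the other groups, yet both stayed well above the shPRMT9 libraries. The difference in effect was −0.99 ± 0.04 (edgeR FDR = 4.0e-38).

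*CTSG* fell in both lines, and fell further in THP1. Its Molm13 levels were 530 and 529 RPKM in shCtrl and 397 and 383 RPKM in shPRMT9, 1.36-fold lower (log2 −0.44 ± 0.02; edgeR FDR = 1.6e-20). Its THP1 levels were 135 and 132 RPKM in shCtrl and 57.5 and 54.6 RPKM in shPRMT9, 2.38-fold lower (−1.25 ± 0.04; edgeR FDR = 5.7e-20), the largest change of any of the 9 genes. Only 0.608% of all THP1 genes tested had a log2 fold change as low or lower. The effects differed by −0.79 ± 0.04 between the lines (edgeR FDR = 2.5e-29).

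*ELANE*, the gene mutated in cyclic and severe congenital neutropenia, hardly moved. In Molm13, 453 and 454 RPKM in shCtrl stood against 427 and 430 RPKM in shPRMT9 (log2 −0.08 ± 0.02; edgeR FDR = 0.0033), a 1.06-fold fall that is larger than the distance between replicates but lost its call without Molm13 shPRMT9 library 1 (−0.06; edgeR FDR = 0.0501). In THP1, 774 and 719 RPKM in shCtrl stood against 648 and 670 RPKM (−0.18 ± 0.03; edgeR FDR = 5.4e-05), 1.13-fold lower. The difference between the lines, −0.08 with a 95% interval of −0.16 to −0.01 from the standard error, missed the threshold (edgeR FDR = 0.074), and was called in 10 of the 15 alternatives, in which it ranged from −0.17 to −0.07.

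These changes altered the make-up of the 4 serine protease genes of the set, in which *CFD* and *PRSS57* are not counted. Taking the 4 serine protease genes together per length, *CTSG* made up 34.7 ± 0.18% (SD, n = 2) of their summed RPKM in Molm13 shCtrl cells, ahead of *ELANE* (29.7 ± 0.06%), *AZU1* (23.9 ± 0.17%) and *PRTN3* (11.6 ± 0.07%). After shPRMT9, *AZU1* led with 37.2 ± 0.02%, *ELANE* and *CTSG* followed with 25.9 ± 0.35% and 23.5 ± 0.40%, and *PRTN3* held 13.4 ± 0.07%. The sum itself went from 1525 ± 5 to 1656 ± 13 RPKM. In THP1, *PRTN3* alone made up 49.98 ± 0.51% of the sum in shCtrl cells and 44.2 ± 0.04% after shPRMT9, while *ELANE* went from 28.4 ± 0.13% to 35.5 ± 0.11%, *AZU1* from 16.5 ± 0.47% to 17.3 ± 0.34% and *CTSG* from 5.08 ± 0.17% to 3.03 ± 0.19%. There the sum dropped from 2626 ± 125 to 1855 ± 50 RPKM. *AZU1* per *CTSG* rose in both lines, from 0.684 and 0.696 to 1.56 and 1.60 in Molm13 and from 3.26 and 3.25 to 5.39 and 6.06 in THP1, a ratio within each library that no scaling between libraries can move.

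**Figure D3:**
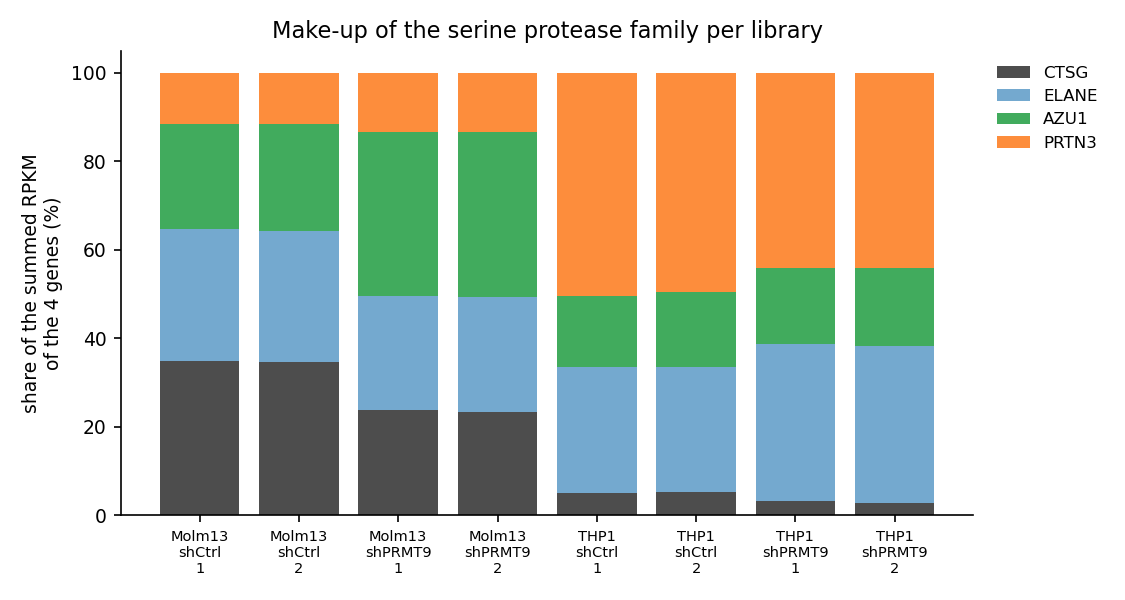
Share of each serine protease gene in the summed RPKM of the 4 genes, as stacked bars that reach 100% for each of the 8 libraries. Replicates look alike, *AZU1* widens in Molm13 shPRMT9 from 23.9% to 37.2%, and *PRTN3* fills 49.98% on average of the THP1 shCtrl bars.

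The genes around *AZU1*, *PRTN3* and *ELANE* were looked at after the values of the cluster had been seen. Within 100 kb of the *ELANE* start, 10 genes were tested in both lines, of which 6 were called higher and 3 lower in Molm13, and 2 higher and 6 lower in THP1. The shares over all genes were 33.4% higher and 33.5% lower in Molm13, and 19% and 18.6% in THP1. Of all genes tested in both lines, 11.3% were called in opposite directions. *CFD* (complement factor D, or adipsin, a serine protease also kept in granules of myeloid cells) starts 8.63 kb downstream of the *ELANE* start and changed like *AZU1*. Its counts in Molm13 were 1791 and 1732 in shCtrl and 2953 and 3279 in shPRMT9 (log2 0.82 ± 0.04; edgeR FDR = 6.5e-24). In THP1 they were 2891 and 2982 in shCtrl and 1823 and 1825 in shPRMT9 (−0.59 ± 0.04; edgeR FDR = 7.3e-12), and the difference between the lines was −1.40 ± 0.06 (edgeR FDR = 3.8e-39). *PLPPR3*, on the opposite strand upstream of *AZU1*, was also called in opposite directions with smaller values, 0.18 ± 0.03 in Molm13 and −0.26 ± 0.04 in THP1. Toward the outside, *PTBP1* was at −0.27 and −0.21, *MED16* at 0.24 and 0.19, *ARID3A* at 0.16 and 0.19 and *R3HDM4* at −0.50 and −0.08. Within 100 kb of the *ELANE* start, no gene outside the span from *PLPPR3* to *CFD* was called in opposite directions. Beyond this window, *PALM*, upstream of *AZU1*, was called higher in Molm13 (0.79 ± 0.16; edgeR FDR = 3.3e-05) and lower in THP1 (−1.20 ± 0.18; edgeR FDR = 5.3e-06). The pattern was thus not confined to that span. *MIR3187*, with 11 to 33 counts, was called in neither line.

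**Figure D4:**
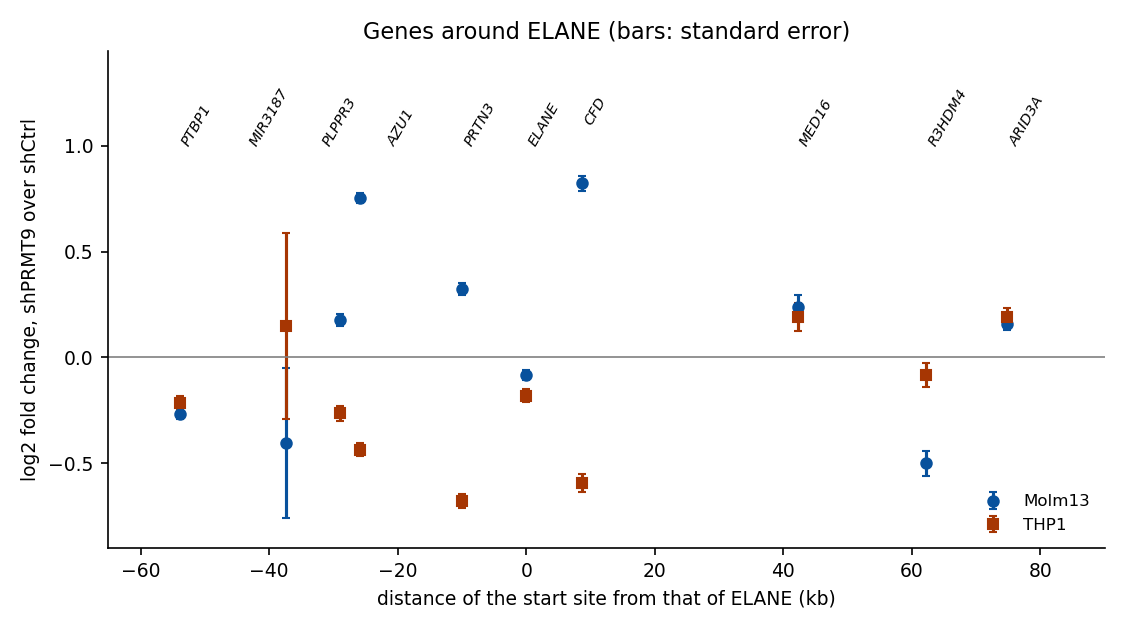
log2 fold change of shPRMT9 over shCtrl (points, with bars for the standard error) for the 10 genes tested in both lines within 100 kb of the *ELANE* start, placed by the distance of their start sites in kb. From *PLPPR3* to *CFD*, 4 of 5 genes lie above 0 in Molm13 and below 0 in THP1, and *ELANE* lies near 0 in both.

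*MPO* (ENSG00000005381, chromosome 17, 58269856 to 58280935, reverse strand) was the lowest of the 9 genes per length in every group and fell in both lines. In Molm13 it had 1236 and 1207 counts in shCtrl and 753 and 900 counts in shPRMT9, or 17.1 and 17.5 RPKM against 11.4 and 11.98 RPKM, 1.48-fold lower (log2 −0.56 ± 0.05; edgeR FDR = 3.3e-13). Only 211 and 188 counts fell on it in THP1 shCtrl and 108 and 104 in shPRMT9, or 2.33 and 1.92 RPKM against 1.22 and 1.19 RPKM, 1.76-fold lower (−0.82 ± 0.14; edgeR FDR = 2.2e-05). The standard error in THP1 was wider than in Molm13, at counts under 250. The difference between the lines was −0.24, with a 95% interval of −0.52 to 0.04 (edgeR FDR = 0.18), and passed the threshold only without THP1 shCtrl library 2 (−0.41; edgeR FDR = 0.029). Of 10 genes for the synthesis of its heme group and its chaperones, 5 were higher and 4 lower in Molm13, and 4 higher and 2 lower in THP1. *ALAS1*, which starts heme synthesis, had the largest value in Molm13 (0.72), and *CPOX*, a later step, in THP1 (0.88), where *UROD* was the smallest (−0.24).

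*LYZ* (ENSG00000090382, chromosome 12, 69348341 to 69354234, forward strand) rose in both lines. In Molm13 the libraries read 359 and 360 RPKM in shCtrl and 564 and 573 RPKM in shPRMT9, 1.58-fold higher (log2 0.66 ± 0.02; edgeR FDR = 1.0e-27). In THP1, from a base 2.98-fold higher, they read 1071 and 1064 RPKM in shCtrl and 1787 and 1703 RPKM in shPRMT9, 1.63-fold higher (0.71 ± 0.03; edgeR FDR = 6.2e-18). All shPRMT9 libraries lay clearly above their controls. The difference between the effects was 0.06, with a 95% interval of −0.01 to 0.13 (edgeR FDR = 0.18). *LYZ* rose while *MPO* fell, so that *LYZ* per *MPO* by RPKM went from 20.9 and 20.6 to 49.4 and 47.8 in Molm13, and from 459 and 555 to 1470 and 1434 in THP1. An antisense gene, AC020656.1, overlaps 599 exonic bases of *LYZ*, and without a stated strand setting reads of the pair cannot be told apart. It was counted at 14 to 76 in the 8 libraries, against 12423 or more for *LYZ*. Of 1761 stretches of 50 bases in *LYZ* transcripts, 630 also occurred in transcripts of other genes (364 genes), with 508 in AC020656.1. For *AZU1* these were 105 of 1781 stretches, in 85 other genes. The part of such shared stretches in the counts was not tested.

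*RNASE2* (ENSG00000169385, chromosome 14, 20955452 to 20956436, forward strand), the eosinophil-derived neurotoxin gene, and *RNASE3* (ENSG00000169397, chromosome 14, 20891399 to 20892348, forward strand), the eosinophil cationic protein gene, are recent duplicates with starts 64053 bases apart. By RefSeq, *RNASE2* starts inside the span given above, so that its window (20955287 to 20955486) overlaps that span. The 200 bases before their RefSeq starts are shown because much of the sequence is shared while the RNA levels differ, with capitals as above:
RNASE2: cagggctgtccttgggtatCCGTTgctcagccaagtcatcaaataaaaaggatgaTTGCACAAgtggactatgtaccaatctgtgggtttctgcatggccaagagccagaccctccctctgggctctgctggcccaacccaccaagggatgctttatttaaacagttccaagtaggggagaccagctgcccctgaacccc
RNASE3: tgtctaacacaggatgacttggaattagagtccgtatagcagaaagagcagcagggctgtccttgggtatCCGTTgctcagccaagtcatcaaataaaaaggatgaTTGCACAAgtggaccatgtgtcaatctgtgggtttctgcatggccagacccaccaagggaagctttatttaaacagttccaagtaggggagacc
In a global alignment 149 bases of the windows were paired, the rest fell in gaps, and 144 of the paired bases, 96.6%, were identical, and each window holds the same MYB and C/EBP matches. Per length, *RNASE2* exceeded *RNASE3* 23.1- and 21.9-fold in the Molm13 shCtrl libraries and 39.1- and 44.6-fold in the THP1 shCtrl libraries. The transcripts share 21 of the 50-base stretches, out of 706 in *RNASE2* and 671 in *RNASE3*. Reads that could fall on either are thus few for *RNASE2*, which had 6266 to 9047 counts. They may weigh more for *RNASE3*, which had only 153 to 317 counts, and their part in its level and changes was not tested.

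*RNASE2* rose in both lines. In Molm13 it went from 416 and 424 RPKM to 568 and 538 RPKM, 1.32-fold higher (log2 0.40 ± 0.03; edgeR FDR = 3.6e-17), and in THP1 from 341 and 341 RPKM to 474 and 482 RPKM, 1.40-fold higher (0.49 ± 0.03; edgeR FDR = 4.2e-13). The groups were apart in both lines. The rise was larger in THP1 by 0.10 ± 0.04 (edgeR FDR = 0.036), but this difference was called in only 2 of 15 alternatives, in which it ranged from 0.03 to 0.11. *RNASE3* leaned the same way without a call. It had 265 and 273 counts in Molm13 shCtrl against 279 and 317 in shPRMT9 (0.15, 95% interval −0.03 to 0.32; edgeR FDR = 0.14), and 161 and 153 counts in THP1 shCtrl against 162 and 203 in shPRMT9 (0.31, 95% interval 0.05 to 0.57; edgeR FDR = 0.069). These intervals do not show that the gene stayed level, and in THP1 it was called without shCtrl library 1 (0.40; edgeR FDR = 0.032) and without shPRMT9 library 1 (0.48; edgeR FDR = 0.0062).

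Other members of the families were sparse. Of 13 further granzyme, chymase and RNase A family genes, the RNase inhibitor gene included, 11 were below 1 RPKM in each line. *RNASE6*, a phagocyte ribonuclease, was a DEG in both lines (0.96 in Molm13, 0.90 in THP1). The inhibitor *RNH1*, which binds RNase A type enzymes in the cytosol, had the smallest value of the list, 0.38 in Molm13 and 0.17 in THP1 (0.10 without THP1 shCtrl library 2, still called). *CMA1* (mast cell chymase, 1.28 in Molm13) and *RNASE1* (1.65 in THP1) had the largest values, each at less than 1 RPKM.

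*SRGN* (ENSG00000122862, chromosome 10, 69088106 to 69104811, forward strand) fell in both lines. It read 1528 and 1523 RPKM in Molm13 shCtrl and 1159 and 1187 RPKM in shPRMT9, 1.30-fold lower (log2 −0.38 ± 0.02; edgeR FDR = 2.9e-20). It read 1764 and 1779 RPKM in THP1 shCtrl and 1428 and 1341 RPKM in shPRMT9, 1.28-fold lower (−0.36 ± 0.03; edgeR FDR = 7.2e-11). The difference in effect was 0.04, with a 95% interval of −0.03 to 0.11 (edgeR FDR = 0.44). Of 18 genes for the glycosaminoglycan chains that serglycin carries, 17 were tested in each line, with 9 higher and 6 lower in Molm13 (median 0.24) and 5 higher and 0 lower in THP1 (median 0.09). *CHST11*, a chondroitin 4-O-sulfotransferase, had the largest value in THP1 (0.86), where *CHSY3* had the smallest (−0.27, not called). In Molm13 the largest was *CHST15* (2.73) and the smallest *EXT1* (−1.03), both at less than 1 RPKM.

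The regulators of these genes were read from a list of 12 transcription factors. PU.1 (*SPI1*) and the C/EBP factors drive granule genes in promyelocytes together with MYB and the RUNX1–CBFB complex, while GFI1 and C/EBPε act on the granulocyte side and IRF8 and KLF4 on the monocyte side. In Molm13, 5 of 11 tested were higher and 5 lower, and in THP1 4 of 12 were higher and 6 lower. Those called higher in both lines were *SPI1* (0.47 in Molm13, 0.42 in THP1), *CEBPD* (0.72 and 0.54) and *ETV6* (0.18 and 0.22). Those called lower in both were *GFI1* (−0.23 and −0.53), *CBFB* (−0.68 and −0.12), *RUNX1* (−0.11 and −0.15) and *MYB* (−0.08 and −0.13). Opposite calls were found for *CEBPA* (0.20 and −0.12) and *IRF8* (0.23 and −0.23), higher in Molm13 and lower in THP1 like *AZU1* and *PRTN3*, and for *CEBPB* (−0.77 and 0.41), the other way round. Without THP1 shCtrl library 2, *CEBPB* was 0.24 in THP1 (edgeR FDR = 0.046). The other calls of the list that a left-out library moved by over 1.5 times were *CBFB* in THP1 (−0.07 without shPRMT9 library 2, not called) and *MYB* in Molm13 (−0.05 without shPRMT9 library 1, not called). *KLF4* was called in neither line (−0.19 and −0.08), and *CEBPE*, tested only in THP1 at 1.32 RPKM in shCtrl, was not called (−0.28).

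Most tested genes rose in a list that pools further primary granule and lysosomal contents. Of 17 such genes, 13 were tested in Molm13 (8 higher, 5 lower, median 0.25) and 11 in THP1 (7 higher, 2 lower, median 0.43), beside medians over all genes of 0.00. Over all genes tested, 33.4% were higher and 33.5% lower in Molm13, and 19% and 18.6% in THP1. The 7 higher in THP1 were *CTSB*, *CTSD*, *CTSZ*, *GAA*, *LAMP1*, *GRN* and *PSAP*. *BPI* (0.86) and *PRSS57* (0.10) rose in Molm13 and were not tested in THP1. *CTSB* (cathepsin B, 0.94 in Molm13 and 0.96 in THP1), *PSAP* (prosaposin, 0.89 and 0.86) and *GRN* (progranulin, 0.90 and 0.65) were DEGs with a rise in both lines, and *CFD* was a DEG in opposite directions. The extremes were *GAA* (acid α-glucosidase, 1.04) and *LAMP2* (−0.65) in Molm13, and *CTSD* (cathepsin D, 1.04) and *CFD* (−0.59) in THP1. The α-defensin genes *DEFA1*, *DEFA1B* and *DEFA3*, named after their values were seen, were at 0 counts in all 8 libraries.

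Most secondary and tertiary granule genes, which follow the primary granule genes in neutrophil maturation, were almost absent. Of 13 such genes, 12 were below 1 RPKM in Molm13 and 11 in THP1, and 7 and 6 had no count at all. The exceptions were *CHI3L1* (chitinase-3-like 1) and, in THP1 shPRMT9 cells, *MMP9* (gelatinase B). *CHI3L1* was at 16.3 RPKM in Molm13 shCtrl and 89.0 RPKM in THP1 shCtrl and fell in both lines (−0.31 in Molm13 and −0.41 in THP1). *MMP9* had the largest value in both lines (1.66 in Molm13 at less than 1 RPKM, 3.90 in THP1, 0.234 to 3.49 RPKM). *TCN1* had the smallest in THP1 (−0.98, not called).

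Genes of protease activation and inhibition were read from a list of 14. *CTSC*, the activator, fell in Molm13 (−0.51), where it had the smallest value of its list, and rose in THP1 (0.23). Of the 14 genes, 9 were tested in Molm13 (7 higher, 1 lower, median 0.50) and 12 in THP1 (4 higher, 4 lower, median 0.03). *SERPINB1*, the cytosolic inhibitor of elastase, cathepsin G and proteinase 3, had the largest value in Molm13 (1.04). In THP1 the largest was *SERPINA1* (α1-antitrypsin, 2.40, at less than 1 RPKM) and the smallest *SERPINB2* (−1.43, 40.9 ± 1.21 RPKM in shCtrl and 15.2 ± 1.25 in shPRMT9). Of 16 genes of granule sorting and trafficking, 7 were higher and 6 lower in Molm13 (median 0.03), and 8 higher and 2 lower in THP1 (median 0.12). The largest were *UNC13D*, a priming factor of granule release (1.08 in Molm13), and *AP3D1*, an adaptor subunit for sorting to granules (0.51 in THP1), and the smallest *G6PC3* (−0.89 in Molm13) and *SORT1* (−0.29 in THP1, not called).

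**Figure D5:**
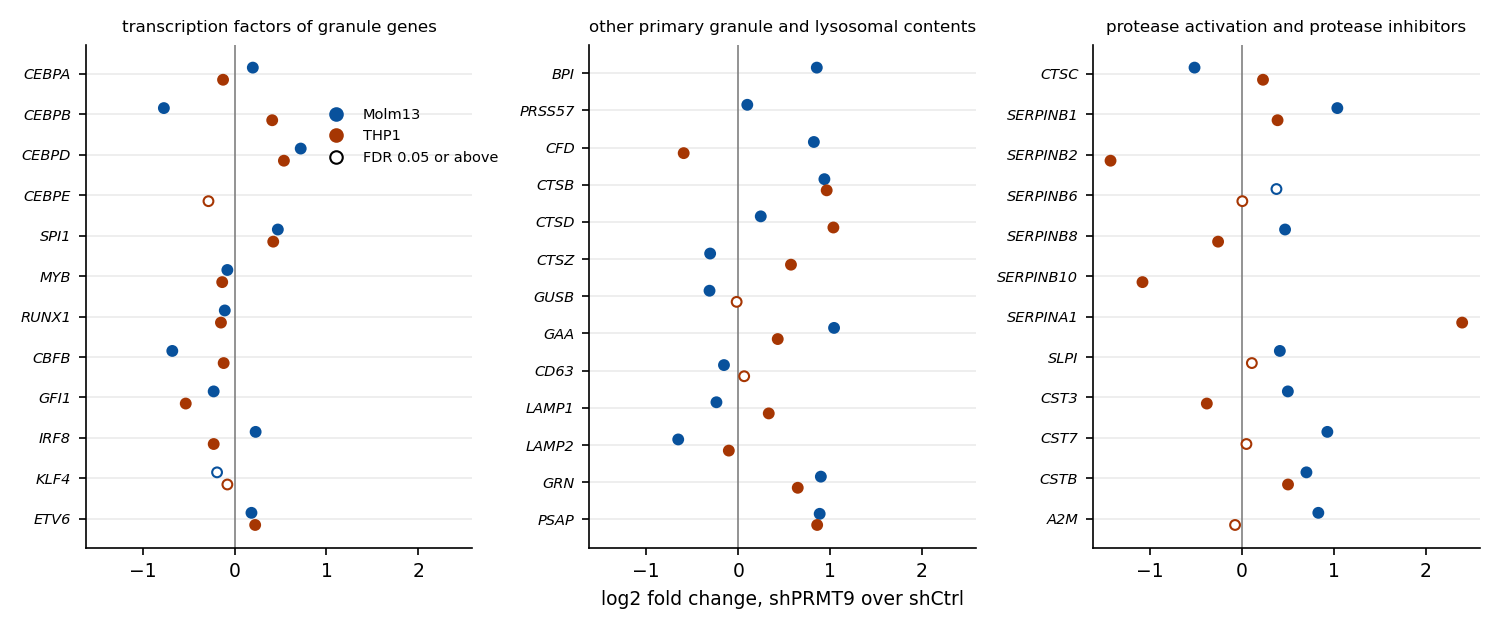
log2 fold change of shPRMT9 over shCtrl for the tested genes of 3 lists in Molm13 and THP1, with open points where the FDR was 0.05 or above. *SPI1* and *CEBPD* lie above 0 and *GFI1* below 0 in both lines, while *CFD*, *CEBPA* and *IRF8* lie on opposite sides.

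Markers of other cell types were read beside these values. The 15 monocyte and myeloid markers summed to 445 and 446 CPM in Molm13 shCtrl against 817 and 819 CPM in shPRMT9, and to 598 and 618 CPM in THP1 shCtrl against 928 and 931 CPM in shPRMT9. Of those tested, 10 of 13 were higher and 2 lower in Molm13, and 12 of 14 higher and none lower in THP1. Beside them, 33.4% of all genes tested were higher and 33.5% lower in Molm13, and 19% and 18.6% in THP1. *CSF1R* (2.06 in Molm13, 1.03 in THP1), *ITGAM* (1.95 and 1.15), *ITGAX* (1.97 and 1.29) and *CD68* (1.18 and 0.78) were DEGs with a rise in both lines, *MNDA* was a DEG in opposite directions (−0.97 and 0.60), *CD14* had the largest value in THP1 (2.40), and *FCGR1A* the smallest there (−0.01, not called). These sums differed between the arms in the same libraries as the granule genes, and their part in the changes was not tested. In bulk RNA, fewer cells of a type and less RNA per cell cannot be told apart.

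All 9 eosinophil, basophil and mast cell markers were below 1 RPKM in both lines, and their sum was 0.587 to 1.38 CPM in Molm13 and 2.33 to 4.88 CPM in THP1, although *RNASE2* and *RNASE3* are best known from eosinophils. All 8 erythroid and megakaryocyte markers were below 1 RPKM in both lines. Among 6 mature neutrophil markers, *FCGR3B* (at 0 in Molm13) marks the most mature cells, and the list summed to 55.1 and 56.3 CPM in Molm13 shCtrl against 128 and 132 CPM in shPRMT9, where *CSF3R* had the largest value (1.24) and *CXCR2* the smallest (0.78). The Molm13 sum rested on *CSF3R*, with up to 2689 counts, as the other 5 were below 1 RPKM and *CXCR2* had at most 41 counts. In THP1 that sum was 105 and 111 CPM in shCtrl and 98.2 and 104 CPM in shPRMT9, with *S100A12* the largest (listed at 0 RPKM in shCtrl, 1.23 RPKM in shPRMT9) and *CXCR2* the smallest (−0.15, not called). Among 8 T and NK cell markers, *NKG7*, a granule membrane protein of cytotoxic cells, was a DEG in both lines (0.77, from 16.1 to 27.3 RPKM, in Molm13, and 0.84, from 5.61 to 10.04 RPKM, in THP1). The neural cell adhesion molecule gene *NCAM1* was at 15.9 RPKM in Molm13 shCtrl and 13.9 RPKM in THP1 shCtrl, and the T and NK cell list summed to 218 to 227 CPM in Molm13 and 167 to 187 CPM in THP1. Of 7 B cell markers, 6 were below 1 RPKM in each line, and of 8 epithelial and fibroblast markers, 7 in Molm13 and 8 in THP1. *PAX5*, a B cell factor, was at 4.54 RPKM in Molm13 shCtrl cells and not called there (−0.12), and in THP1 had the largest value of its list (2.03, from 0.299 RPKM). The smallest T and NK cell values were *NCAM1* in Molm13 (−0.02, not called) and *CD3G* in THP1 (−0.43, not called). *KRT8* (0.60) and *KRT18* (0.21) were the extremes of the epithelial list in Molm13, and *COL1A1* (0.75, not called) and *KRT8* (0.63) in THP1. The single eosinophil, basophil or mast cell marker tested was *MS4A2* (−1.65 in Molm13, −0.30 in THP1, not called there), and the single erythroid or megakaryocyte marker was *ITGA2B* in THP1 (−0.83, not called). Among the *MLL*-fusion markers the extremes were *PBX3* (0.37) and *HOXA10* (−0.44) in Molm13 and *HOXA9* (0.20) and *HOXA7* (−0.66, not called) in THP1, and among the *HOXB* genes *HOXB3* (0.45) and *HOXB6* (−0.70, not called) in THP1.

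The genes whose centered log2 CPM ran closest to each of the 9 genes over the 8 libraries were found by the root mean square (RMS) difference over 19288 genes, as a description in which the points share their libraries and the distance between the lines. Closest to *AZU1* were *SPATA7* (RMS 0.0616) and its neighbor *CFD* (0.0671). *PRTN3* was closest to *SDC3* (0.112) and CH17-340M24.3 (0.113), *ELANE* to *FBXO9* (0.0382) and *MCU* (0.0423), and *CTSG* to *GRK5* (0.120) and *MIR9-3HG* (0.174). Nearest to *LYZ* were *FAM46A* (0.0816) and *PAQR8* (0.0926), and nearest to *SRGN* were *SMAD2* (0.0359) and *KMT2C* (0.0410). For *RNASE2* these were *IL4R* (0.0573) and *DOCK5* (0.0584), for *RNASE3* *KAT14* (0.0851) and *DDX27* (0.0909), and for *MPO* AP000350.6 (0.167) and *CD1A* (0.187). None of the 9 genes was among the 2 closest of another.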

How the data were processed

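Poly(A) RNA libraries of Molm13 and THP1 cells (2 per group, 8 in all) had been made with a Kapa mRNA HyperPrep kit and sequenced on an Illumina HiSeq system. Per the submitters' processing notes, TopHat2 2.0.8, HTSeq 0.11.2, edgeR 3.30.3 and build hg38 were used. The authors deposited unnormalized counts of reads per gene, in 1 table per line. The annotation and the strand setting are not given in the sources used here. Of 57388 identifiers of the Molm13 table found in GENCODE 29, 96.3% had the same start and end there, all 9 genes included.

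From the counts, R 4.3.3 and edgeR 4.0.16 (TMM, filterByExpr, quasi-likelihood test, Benjamini-Hochberg adjustment over all genes tested) compared shPRMT9 with shCtrl within each line. A fit of all 8 libraries gave the difference in effect and the difference between control cells. CPM and RPKM used TMM-scaled totals, with exon lengths from the Molm13 table. Differences are log2 fold changes ± SE, with SE as the log2 value over the root of F. limma 3.58.1 and DESeq2 1.42.0 served as alternatives, beside other normalizations, filters, call limits and left-out libraries. On simulated counts, with 100 genes per fold size, the test called 78 at 1.5-fold and 95 at 2-fold in Molm13 (16141 genes), 72 and 90 in THP1 (15969 genes), and for the difference in effect 66 and 76 (18175 genes). The 9 genes and all gene lists were chosen with earlier results of these data known. Besides the 9 genes and *PRMT9*, each list gives by name its DEGs common to both lines and its largest and smallest value per line, and the transcription factor list all its tested genes. Some genes that this rule selects are not reported here. Any other gene was named after its values were seen. Replicates differed by more than counting noise (chi-square per gene 1.35 to 2.17), and none was counted as a duplicate. Promoter windows came from RefSeq (GRCh38.p14), which gave 5 of the 9 genes, and were aligned with Biopython; *MPO*, *ELANE*, *LYZ* and *SRGN* were not matched there.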

Additional observations from a re-analysis of the deposited data

Results flagged for a closer look

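The effect of shPRMT9 differed between THP1 and Molm13, by the test of the difference itself in the fit of all 8 libraries, for 4 of the 9 genes, beside 42.2% of all 19288 genes tested. As THP1 minus Molm13 on the log2 scale the difference was −1.18 for *AZU1*, −0.99 for *PRTN3*, −0.79 for *CTSG* and 0.10 for *RNASE2*. For *AZU1* and *PRTN3* it joins a rise in Molm13 and a fall in THP1, for *CTSG* a smaller and a larger fall, and for *RNASE2* a smaller and a larger rise. The first 3 were called in all 15 alternatives and *RNASE2* in 2 of them. For *RNASE2* the value fell to 0.05 without Molm13 shCtrl library 2, 0.03 without Molm13 shPRMT9 library 2, 0.06 without THP1 shCtrl library 1 and 0.05 without THP1 shPRMT9 library 2, none of them called. The line and the handling of its table cannot be told apart.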

How the results depend on the processing

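Of 486 recalculated values of the 9 genes over 4 comparisons, 450 kept their direction and their side of the threshold, 14 lost a call, 15 gained one and 7 turned in direction, the last all for differences in effect that were never called. These were, for *SRGN*, −0.0082 under library size only and, without 1 library each, 4 values in a range of −0.038 to 0.044, for *LYZ* 1 value in a range of −0.0055 to 0.056 (without THP1 shPRMT9 library 1), and for *RNASE3* −0.042 without THP1 shPRMT9 library 2, in a range up to 0.31. In THP1, *CEBPE* turned to 0.082 without shCtrl library 1, in a range from −0.60. Under the DEG rule the called genes fell from 8 to 2 in Molm13 (2 higher, 0 lower) and from 8 to 4 in THP1 (1 higher, 3 lower). Above 2-fold, 5 genes differed between control cells (2 higher) and 1 differed in effect (0 higher, 1 lower). The single higher difference in effect, *RNASE2*, was lost (0 higher) under library size only, DESeq2 size factors, the DESeq2 test, no filter, the filter of at least 10 counts and each left-out library. Without 1 library, the count of lower differences ranged from 3 to 5 and of higher ones stayed at 0; it reached 5 without THP1 shCtrl library 2. The numbers 1 and 2 did not pair libraries (correlation of deviations −0.07 in Molm13 and −0.02 in THP1). With the replicate block, *RNASE3* was called in THP1 (0.31; edgeR FDR = 0.048), and no other call of the 9 genes changed. Among the transcription factors, *MYB* in Molm13 lost its call without shPRMT9 library 1, *CBFB* in THP1 without shPRMT9 library 2, and *KLF4* in Molm13 gained one without shCtrl library 2. With 2 libraries per group, a left-out library leaves 1, assumed to vary like the others.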
